A study of Mus musculus with 8 samples.

Results

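The cytosolic ribosome of the mouse is built from ribosomal RNA and a fixed set of proteins, named Rps for the small 40S subunit and Rpl for the large 60S subunit. The genes considered here are those whose single annotated symbol begins with Rps or Rpl and a digit, together with the acidic stalk genes Rplp0, Rplp1 and Rplp2 and the laminin receptor homologue Rpsa. S6 kinase genes, pseudogene symbols and Rps19bp1 were left out. The rule found 62 genes among the 19938 genes that had a probe set with 1 symbol, 24 for the 40S and 38 for the 60S subunit, and each gene is represented by its brightest probe set. Of these, 8 are paralogues or copies of a core gene: Rpl3l, Rpl10l, Rpl39l, Rpl7l1, Rpl32l, Rps27l, Rps4l and Rps23rg1.

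Ribosomal protein genes are expressed in every cell and their transcripts are among the most abundant in the brain. Many of these transcripts begin with a cytosine followed by an unbroken stretch of pyrimidines, the 5′ terminal oligopyrimidine (TOP) tract, which lets the mTOR kinase and the RNA-binding protein Larp1 control their translation together. In the suprachiasmatic nucleus (SCN), the hypothalamic clock of mammals, mTOR and S6 kinase activity is known to follow light and circadian time, so the family is of interest for the output of the clock on protein synthesis.

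The study hybridised SCN RNA of C57BL/6J mice, either wild type or Gpr176-/-, which lack a receptor of the G-protein-coupled class that SCN neurons express. Mice had been kept for more than 2 weeks in 12 hours of light and 12 of darkness and were then moved to constant darkness, and the labels name no other treatment. Laser-dissected SCN of 10 animals were pooled for each array, at circadian time 6 (CT6, subjective day) or circadian time 18 (CT18, subjective night), and each of the 4 groups (WT CT6, WT CT18, KO CT6 and KO CT18) had 2 arrays, A and B, from separate pools. All levels below are log2 intensities, and a difference of log2 levels is the log2 fold. Neither the deleted stretch of Gpr176 nor the age of the animals is given in the labels.

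Annotated promoters show how the TOP start appears in this family. RefSeq promoter windows (GRCm38.p6) were matched for 50 of the 62 genes. A C at the annotated start followed by 4 further C or T letters was found in 10 of these 50 genes, 20% against 3.01% of 27025 genes in the same table, or 16.9% of the family's starts against 2.51% of all 32851 starts. The first 6 windows below are 6 of those 10 genes, shown because the TOP start is the feature the family is known for. The last 6 belong to genes named in the comparisons below, where others such as Rps14 and Rpl22 are named but not shown here. Each window runs from 20 bases before the annotated start and is 40 bases long, and capitals mark its longest unbroken run of C and T.
Rps6, chr4:86857348-86857387, minus strand: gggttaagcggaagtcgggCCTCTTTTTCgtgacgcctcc
Rpl28, chr7:4792945-4792984, plus strand: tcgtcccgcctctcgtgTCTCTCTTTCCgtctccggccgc
Rps18, chr17:33955646-33955685, minus strand: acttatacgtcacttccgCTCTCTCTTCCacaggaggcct
Rplp2, chr7:141447631-141447670, plus strand: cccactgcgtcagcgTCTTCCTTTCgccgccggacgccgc
Rps10, chr17:27635225-27635264, minus strand: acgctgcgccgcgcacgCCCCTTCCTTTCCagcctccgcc
Rpl38, chr11:114668560-114668599, plus strand: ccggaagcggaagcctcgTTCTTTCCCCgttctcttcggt
Rps3a1, chr3:86142649-86142688, minus strand: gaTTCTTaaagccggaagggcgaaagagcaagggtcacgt
Rps13, chr7:116334171-116334210, minus strand: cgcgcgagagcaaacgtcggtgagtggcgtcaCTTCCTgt
Rpl12, chr2:32961692-32961731, plus strand: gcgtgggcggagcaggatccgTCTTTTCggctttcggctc
Rps28, chr17:33824543-33824582, minus strand: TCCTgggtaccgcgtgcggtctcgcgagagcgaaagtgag
Rps4x, chrX:102189372-102189411, minus strand: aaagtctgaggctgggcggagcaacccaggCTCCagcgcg
Rpl24, chr16:55966255-55966294, plus strand: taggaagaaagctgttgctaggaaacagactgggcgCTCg

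The run was 10 to 13 letters long in the first 6 windows, which were chosen for the TOP start, and covered the annotated start there. It was 3 to 7 letters in the last 6, none of which has that start by the rule above. The choice of windows therefore fixed this contrast. The letters CCGGAAG, read on either strand and so also as CTTCCGG, which can overlap a C and T run, were present within the 300-base promoter of 19 of the 50 genes. That is 38% against 9.93% of all genes; the word is the core of sites for Ets factors. TATAAA before the start was found in 1 of the 50, Rpl32l, against 8.94% of all genes. An annotated start can lie some bases from the one used in the SCN, and a match to letters is a description of sequence only.

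Family members were bright on these arrays. Their mean levels ran from 5.59 to 13.3 with a median of 10.8, at the 96.4th percentile of all genes measured. The 3 brightest were Rps6 (13.3), the substrate that gives S6 kinase its name, Rpl21 (13.1) and Rpl10 (12.9), a late-joining 60S protein. The 3 dimmest were the paralogues Rpl39l (5.59), Rpl3l (5.66) and Rpl10l (6.31), known from testis or striated muscle. Brightness depends on the probes as well as the transcript, so these levels do not rank transcripts by abundance. The 3 dimmest fell under the level of 6.82 required for testing, which left 59 of the 62 genes among 12452 tested.

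Over the 8 arrays the range of a member's level lay between 0.0546 and 0.418, and other genes' ranges were not set beside it. The range from the lowest to the highest array was smallest for Rps6 (0.0546), Rpl19 (0.0722) and Rpl21 (0.0864), all among the bright members. It was largest for Rpl26 (0.418), Rps28 (0.386) and Rps21 (0.374). Rpl26 is known for binding p53 mRNA, and Rps21 is a small 40S protein.

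The arrays carried the marks of their labels. Gpr176 read 9.37 and 9.31 in WT CT6, 9.73 and 9.87 in WT CT18, 8.08 and 8.02 in KO CT6, and 8.42 and 8.56 in KO CT18, a knockout minus wild type difference of -1.30 ± 0.05 (SE, limma adjusted p = 3.37e-06). The clock genes Per1 and Per2 were lower at CT18 by -1.72 and -1.48, and all 10 SCN neuron markers were above the testing level. Markers of other cells were present as well, since the dissected tissue was not sorted by cell type. In such bulk RNA, fewer cells of a type and less RNA per cell cannot be told apart.

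Setting each gene against its own mean over the 8 arrays shows how the family moved as a group. The median of the 62 deviations was 0.00231 and -0.0135 in the WT CT6 arrays, -0.0868 and -0.0495 in WT CT18, 0.0439 and 0.0370 in KO CT6, and 0.0620 and 0.0151 in KO CT18. Both WT CT18 arrays lay lowest and all 4 knockout arrays lay above all 4 wild-type arrays. The number of genes above their own mean was 33 and 23 of 62 in WT CT6, 3 and 7 in WT CT18, 52 and 55 in KO CT6, and 53 and 36 in KO CT18.

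**Figure D1:**
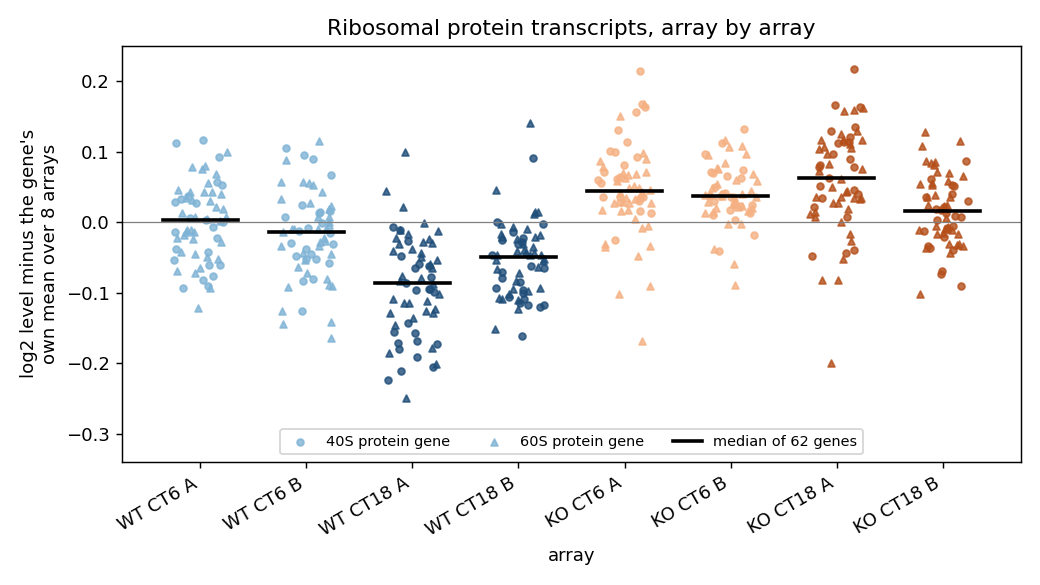
Each point is 1 of 62 ribosomal protein genes, plotted as its log2 level minus its own mean over 8 arrays (y axis) for each array (x axis). Circles are 40S and triangles 60S genes, and the bar is the median, which is lowest in the WT CT18 arrays (-0.0868 and -0.0495) and highest in KO CT18 A (0.0620).

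The first comparison asked what the loss of Gpr176 did to these transcripts. Over both circadian times, 58 of the 62 genes read higher in the knockout, with a median difference of 0.0853, a 1.06-fold level. The median of all genes tested was -0.0101, and 47.0% of all genes with a probe set were above 0. No single member passed the test: 0 of 59 were called at an adjusted p under 0.05 by limma, where 0.0241% of all genes tested were called, all 3 of them lower. At an unadjusted p under 0.05, 30 members passed (12.0% of all genes did), 29 higher (5.15%) and 1 lower (6.87%). That count fell to 13 with median centring of the arrays, to 15 without the WT CT18 A or the KO CT18 A array, to 18 without KO CT6 B and to 19 without WT CT6 B, while the number above 0 stayed between 55 and 60 under every alternative run.

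Among the small-subunit genes all 24 read higher in the knockout, with a median of 0.0923. Rps14, a core 40S protein, read 10.71 and 10.67 in WT CT6, 10.55 and 10.62 in WT CT18, 10.82 and 10.79 in KO CT6, and 10.84 and 10.79 in KO CT18. The 4 knockout arrays lay above the 4 wild-type arrays without overlap, at 10.81 ± 0.03 against 10.64 ± 0.07 (SD, n = 4 each). The difference of 0.17 ± 0.04 (SE) had an adjusted p of 0.342 in limma.

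Rps28, a small 40S protein at the exit of the mRNA channel, had the largest fold of the family, 1.14. It read 10.74 and 10.66 in WT CT6, 10.57 and 10.64 in WT CT18, 10.96 and 10.81 in KO CT6, and 10.87 and 10.71 in KO CT18. The KO CT18 B array lay within the wild-type range, so the genotypes overlapped, and the difference was 0.18 ± 0.05 (SE, adjusted p = 0.342). Rps4x, the X-linked 40S protein, read 11.11 and 11.03 in WT CT6 and 10.93 and 10.98 in WT CT18. In the knockout it read 11.16 and 11.20 at CT6 and 11.18 and 11.10 at CT18. Only KO CT18 B lay under the highest wild-type array, and the difference was 0.15 ± 0.04 (SE, adjusted p = 0.342).

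The 40S genes nearest to no difference were Rps15 (0.002) and Rps6 (0.005), both of them among the brightest. The value of Rps15 rests on its brightest probe set, and its other 2 probe sets gave 0.12 and 0.12. Rps6 read between 13.27 and 13.32 in all 8 arrays. Rps18, often used as a reference gene in PCR, read 11.15 and 11.13 in WT CT6, 10.97 and 11.06 in WT CT18, 11.22 and 11.22 in KO CT6, and 11.25 and 11.14 in KO CT18. Its difference of 0.13 was above the family's median, and its highest wild-type array lay just above its lowest knockout array. Rpsa, which serves both in the 40S subunit and as a laminin-binding protein, had a difference of 0.09.

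Among the large-subunit genes 34 of 38 read higher in the knockout, with a median of 0.0793. Rpl22, an RNA-binding 60S protein, read 8.17 and 8.12 in WT CT6, 8.01 and 8.19 in WT CT18, 8.27 and 8.32 in KO CT6, and 8.31 and 8.30 in KO CT18. The knockout arrays clustered at 8.30 ± 0.02 above the wild-type arrays at 8.12 ± 0.08 (SD, n = 4 each), with no overlap. The difference was 0.18 ± 0.05 (SE, adjusted p = 0.342). Next in size among 60S genes were Rpl26 (0.18), Rpl37a (0.14), Rpl36a (0.13) and Rpl13 (0.13).

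Rpl12, a protein at the base of the stalk where elongation factors bind, stood on the other side. It read 6.98 and 7.08 in WT CT6, 7.07 and 7.11 in WT CT18, 6.88 and 6.91 in KO CT6, and 6.77 and 6.96 in KO CT18. All 4 knockout arrays lay below all 4 wild-type arrays, at 6.88 ± 0.08 against 7.06 ± 0.06 (SD, n = 4 each). The difference was -0.18 ± 0.05 (SE, adjusted p = 0.342). Its only single-symbol probe set was dim, at a mean of 6.97 just over the testing level. The other 3 genes below 0 were Rpl10l (-0.04), Rpl39l (-0.03) and Rpl41 (-0.02).

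The stalk proteins themselves, which recruit elongation factors to the 60S subunit, read higher. Rplp0, the stalk's core and a frequent reference gene, had a difference of 0.05 ± 0.04 (SE), Rplp1 of 0.06 and Rplp2 of 0.12. Rplp2 read 7.40 and 7.44 in WT CT6, 7.27 and 7.32 in WT CT18, 7.47 and 7.53 in KO CT6, and 7.48 and 7.41 in KO CT18. KO CT18 B was the single knockout array of Rplp2 under a wild-type one.

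**Figure D2:**
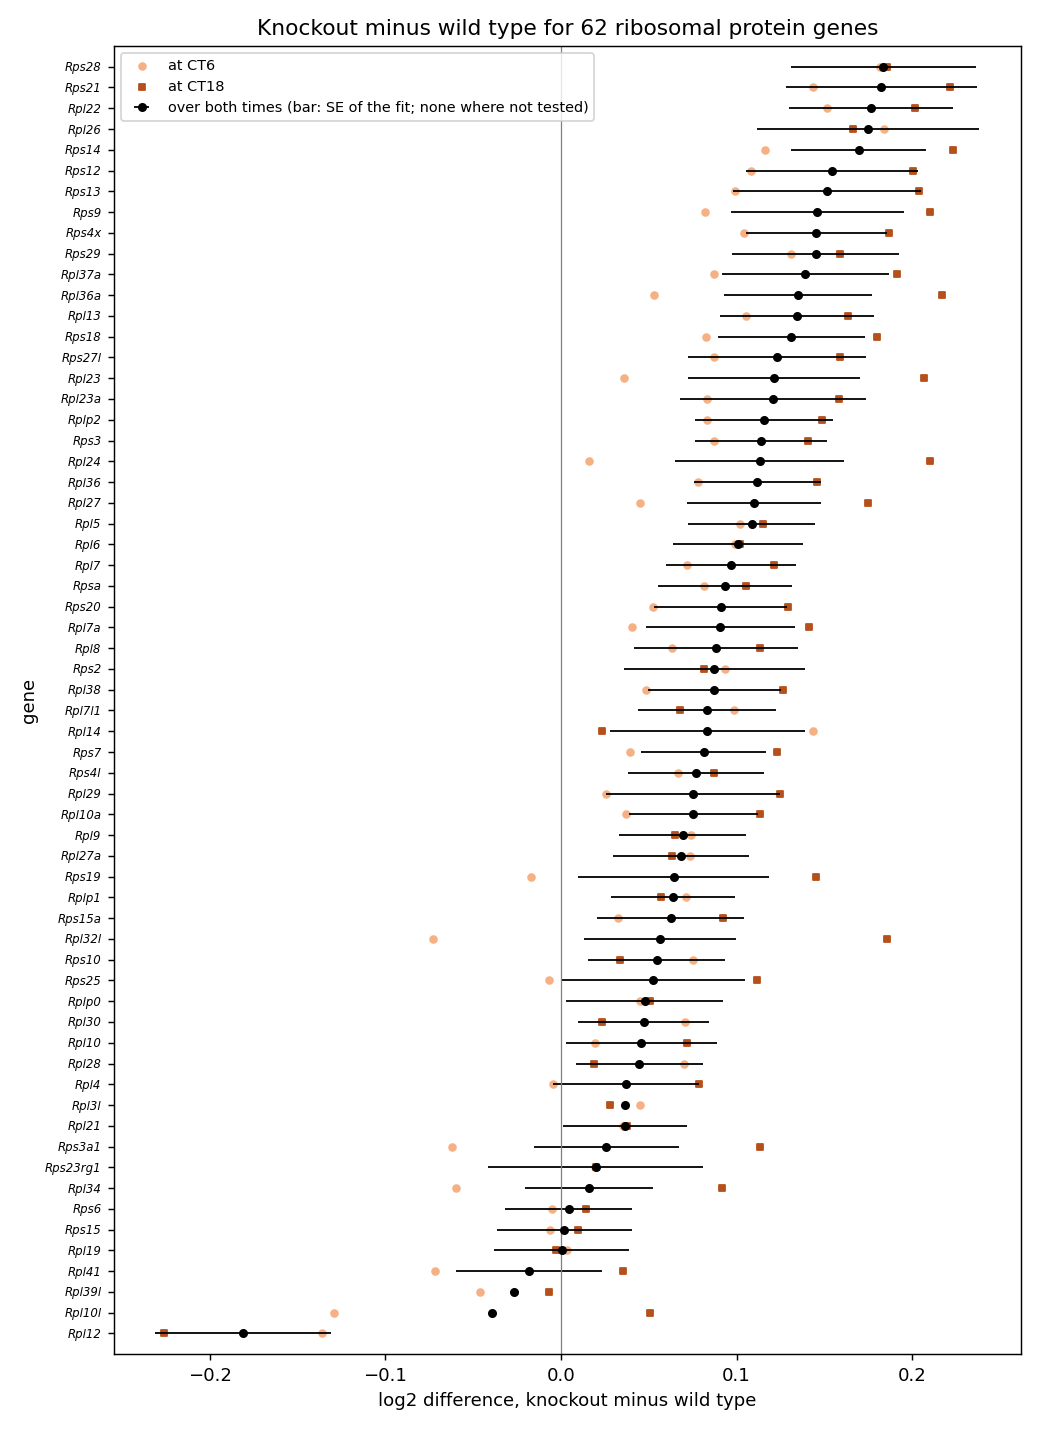
Log2 difference, knockout minus wild type (x axis), for the 62 genes (y axis), over both times (black, bar: SE of the limma fit), at CT6 (light circles) and at CT18 (dark squares). Of the 62 black points 58 lie above 0, from Rpl12 at -0.18 to Rps28 at 0.18.

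In 17 genes every knockout array was above every wild-type array, where 1.71% of all genes with a probe set showed this, and in 1 gene, Rpl12, every one was below (1.70% of all genes). The 17 were Rps3, Rps9, Rps10, Rps14, Rps20, Rps21 and Rps29 of the 40S subunit and Rpl5, Rpl6, Rpl7l1, Rpl9, Rpl13, Rpl22, Rpl27, Rpl36, Rpl37a and Rpl38 of the 60S subunit. Rps3 and Rps9 line the path of the mRNA into the small subunit. Rpl5 is a partner of Mdm2 in the p53 response to failed ribosome assembly, and Rpl38 is needed for the translation of some Hox transcripts.

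The comparison at CT6 and the one at CT18 use different arrays. At CT6, 50 of 62 genes read higher in the knockout (47.8% of all genes) with a median of 0.0684, and at CT18, 59 of 62 did (47.0% of all genes) with a median of 0.114. In 49 of the 62 the difference was above 0 at both times, against 24.7% of all genes with a probe set and 23.1% of the 1846 other genes with a level of 10 or more. The difference was also above 0 at both times in 46 of the 77 genes of the mitochondrial ribosome, which are set beside the family below. All 8 arrays were normalized together.

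No member was called by limma at either time (0.00803% of all genes tested were called at CT6, and 0.00803% at CT18). At an unadjusted p under 0.05, 2 members passed at CT6 (4.24% of all genes), both higher (2.38%), Rps28 with 0.18 and Rpl22 with 0.15. At CT18, 27 passed (12.5% of all genes), 26 higher (5.28%) and Rpl12 lower (7.24%). The CT18 count was 9 with median centring and 5 without either WT CT18 A or KO CT18 A. The knockout and wild-type arrays did not overlap in 36 genes higher and 4 lower at CT6 (14.5% and 16.0% of all genes). At CT18 the counts were 45 and 1 (18.8% and 22.7% of all genes). The 4 lower at CT6 were Rpl12, Rpl34, Rpl39l and Rps3a1.

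At CT18 the smallest p-values belonged to Rps14 (0.22), Rpl36a (0.22), Rps4x (0.19), Rpl27 (0.17) and Rpl12 (-0.23), each with an adjusted p of 0.319 in limma. Rpl36a, a 60S protein of the tRNA exit site, read 11.24 and 11.29 in WT CT18 and 11.50 and 11.46 in KO CT18. Rpl27 read 11.11 and 11.17 in WT CT18 and 11.35 and 11.28 in KO CT18. In both genes the gap between genotypes was larger than the distance between arrays of a group. At CT6 the leading genes beside Rps28 and Rpl22 were Rps14 (0.12), Rpl26 (0.18) and Rpl5 (0.10), with an adjusted p of 0.975.

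The size of the difference varied with level. The 31 genes with a level from 10 to 12 all read higher in the knockout, with a median of 0.110. The 13 genes at 12 or more had a median of 0.0458. The 18 under 10 had 0.0667, and the 15 of these that were tested had 0.0833. Other genes of the same brightness did not share the direction: the 1846 others with a level of 10 or more had a median of -0.0213, and 36.6% of them were above 0.

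**Figure D3:**
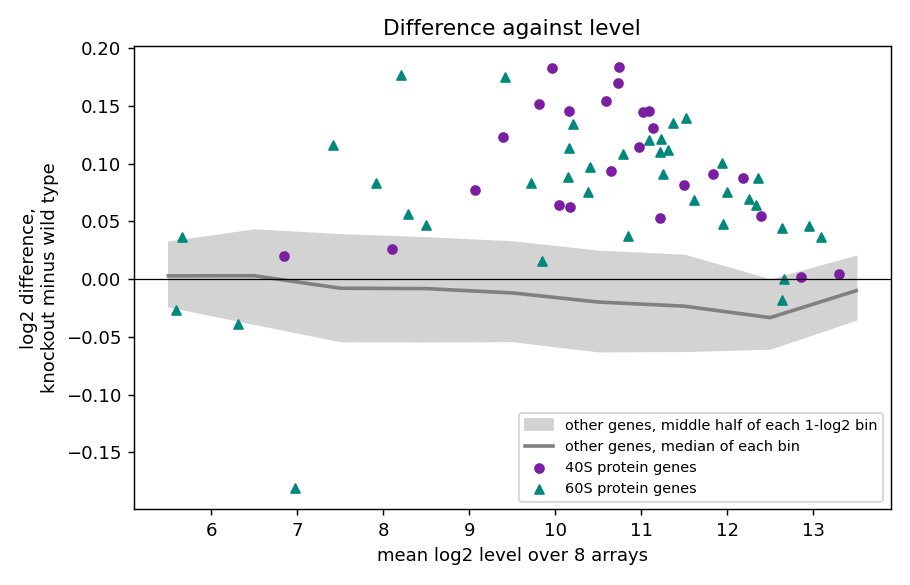
Knockout minus wild type over both times (y axis, log2) against mean log2 level (x axis) for 40S (circles) and 60S genes (triangles), with other genes as a grey line (bin medians) and band (lower to upper quartile). The family's median lies above the band in each 1-log2 bin from level 7 to 13. It is 0.110 from level 10 to 12 and 0.0458 at 12 or more, where other genes have a median of -0.0265.

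Many genes had several probe sets, which checks the direction within the arrays. The 62 genes had 218 single-symbol probe sets, of which 211 read higher in the knockout, with a median of 0.0973. Of 39 genes with more than 1 probe set, 37 had every probe set above 0. Rps6 had 7 of 8 above 0, and Rpl41, a very short 60S protein, had all 3 below 0. Ribosomal protein genes have many near-identical processed pseudogenes, so that probe sets with 1 symbol may still read transcripts of copies, and probe sets of a gene are not independent. A further 20 symbols, Rpl3, Rpl11, Rpl13a, Rpl15 and Rps24 among them, lay only on probe sets with several symbols and are given no value.

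Of the 8 paralogues and copies, 6 read higher in the knockout, with a median of 0.0465, and 3 were too dim to test. Rps27l, a p53-responsive copy of Rps27, had a difference of 0.12. Rpl7l1, known from 60S assembly, had 0.08 beside 0.10 for Rpl7. Rps4l, which RefSeq lists as a pseudogene, had 0.08 beside 0.15 for Rps4x, and Rpl10l had -0.04 beside 0.05 for Rpl10. Rps23rg1, a retrogene of Rps23, had 0.02, Rpl32l had 0.06 and Rpl3l had 0.04.

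The genotype difference was also read against the promoter features. The 10 genes with the TOP-like start had a median of 0.0729 and ran from 0.00455 to 0.183. The other 40 matched genes had a median of 0.0854 and ran from -0.181 to 0.184. The 19 genes with CCGGAAG had 0.0812 and the other 31 had 0.0833. The start rule asks for a C exactly at the annotated start, so the other 40 genes are not known to lack a TOP tract. These medians are descriptions, with no test.

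Some markers of other cells differed between the genotypes alongside the family. All 7 measured oligodendrocyte markers (of 8 listed) read lower in the knockout over both times, with a median of -0.132; their mean level ranged from 9.58 to 10.01 in wild type and from 9.59 to 9.93 in knockout. All 8 endothelial and mural markers read lower, with a median of -0.0530 and mean levels of 7.92 to 8.05 in wild type and 7.84 to 7.99 in knockout. All 8 astrocyte markers read lower at CT18, with a median of -0.130 and mean levels of 11.04 and 10.95 in WT CT18 against 10.83 and 10.91 in KO CT18. None of these markers passed the test in the knockout comparisons, and their part in the ribosomal difference was not tested.

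The 7 leptomeningeal markers had a median of -0.445 at CT18 and 0.101 at CT6. Their mean level was 7.85 and 7.15 in the WT CT18 arrays A and B and 7.15 and 7.14 in KO CT18, so the arrays of a group differed as well. Microglial markers had a median of 0.0547 (6 of 7 above 0), and ependymal and tanycyte markers 0.0395 (4 of 5 above 0). The 2 measured blood markers, of 4 listed, had -0.0518. The 10 SCN neuron markers, Gpr176 among them, had array medians of 10.36 and 10.32 in WT CT6 and 10.36 and 10.34 in WT CT18. In the knockout these medians were 10.38 and 10.51 at CT6 and 10.39 and 10.38 at CT18, all above wild type. Their array means were lower in the knockout at each time: 10.53 and 10.49 against 10.36 and 10.45 at CT6, and 10.00 and 10.01 against 9.94 and 9.95 at CT18. The deleted gene Gpr176 is among these 10 markers, and its own difference of -1.30 over both times lowers the knockout means. Means without Gpr176 were not taken, so these values do not show that the other markers were lower. The part of these cells in the ribosomal difference was not tested.

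The next comparison asked whether the transcripts differ between subjective day and night. In wild type, 52 of 62 genes read lower at CT18 than at CT6 (46.5% of all genes were below 0), with a median of -0.0613 beside 0.0164 for all genes tested. The median of the 40S genes was -0.0947 and that of the 60S genes -0.0387. Rps3a1, a 40S protein, was the only member to pass the test, and it fell by 0.24 ± 0.06 on the log2 scale (SE, adjusted p = 0.0399 in limma). That is 1 of 59 members, where 6.94% of all genes tested were called and 2.54% were called lower. At an unadjusted p under 0.05, 7 members passed, all lower (21.8% of all genes passed, 8.49% lower); that count was 1 without WT CT6 A and 2 without WT CT18 A. Without WT CT18 A the family's median was -0.0352.

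Markers of other cells differed between night and day in wild type as well. All 7 measured oligodendrocyte markers read lower at CT18, with a median of -0.141 and 1 of them called, and their mean level was 9.88 and 10.01 in WT CT6 against 9.91 and 9.58 in WT CT18. Of the ependymal and tanycyte markers 4 of 5 read lower (median -0.0970), and of the endothelial and mural markers 5 of 8 did (median -0.0504), with none called. Astrocyte (0.0372, 6 of 8 above 0), microglial (0.0279, 5 of 7) and leptomeningeal markers (0.0407, 5 of 7) had medians above 0. The part of these cells in the ribosomal night-day difference was not tested.

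Rps3a1 read 8.21 and 8.19 in WT CT6, 7.90 and 8.03 in WT CT18, 8.16 and 8.12 in KO CT6, and 8.05 and 8.10 in KO CT18. It had only 1 single-symbol probe set, with a mean level of 8.10, under the family's median of 10.8. The night arrays lay below the day arrays in both genotypes, without overlap between all 4 CT6 and all 4 CT18 arrays, which 5.76% of all genes showed in this direction; no member showed it in the other (8.54% of all genes). Over both genotypes it fell by 0.15 ± 0.04 on the log2 scale (adjusted p = 0.0351 in limma). The wild-type call was lost with median centring (adjusted p = 0.108), with the deposited values (0.0896) and when any array but WT CT18 B was left out (0.0529 to 0.254, highest without WT CT18 A). The call over both genotypes was lost under the same settings, with adjusted p of 0.0816, 0.0677 and 0.0590 to 0.116.

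Below the test's threshold in wild type were Rpl34 (-0.15, adjusted p = 0.122), Rps13 (-0.22, adjusted p = 0.128), Rpl24 (-0.18, adjusted p = 0.160) and Rpl7 (-0.14, adjusted p = 0.166). Rps13, a 40S protein, read 9.93 and 9.77 in WT CT6 and 9.61 and 9.65 in WT CT18. In the knockout it read 9.95 and 9.95 at CT6 and 9.93 and 9.74 at CT18. The wild-type night arrays were the lowest of the 8 for Rps13.

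Rpl24, mutated in the Belly spot and tail mouse, read 10.21 and 10.19 in WT CT6, 9.98 and 10.06 in WT CT18, 10.23 and 10.19 in KO CT6, and 10.32 and 10.13 in KO CT18. Rpl34 read 9.92 and 9.90 in WT CT6, 9.78 and 9.74 in WT CT18, 9.86 and 9.84 in KO CT6, and 9.88 and 9.83 in KO CT18. Both genes had day and night apart in wild type and overlapping in the knockout. Of all 62, 29 genes read lower and 1, Rplp1, higher at CT18 in wild type without overlap (20.4% and 26.0% of all genes).

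**Figure D4:**
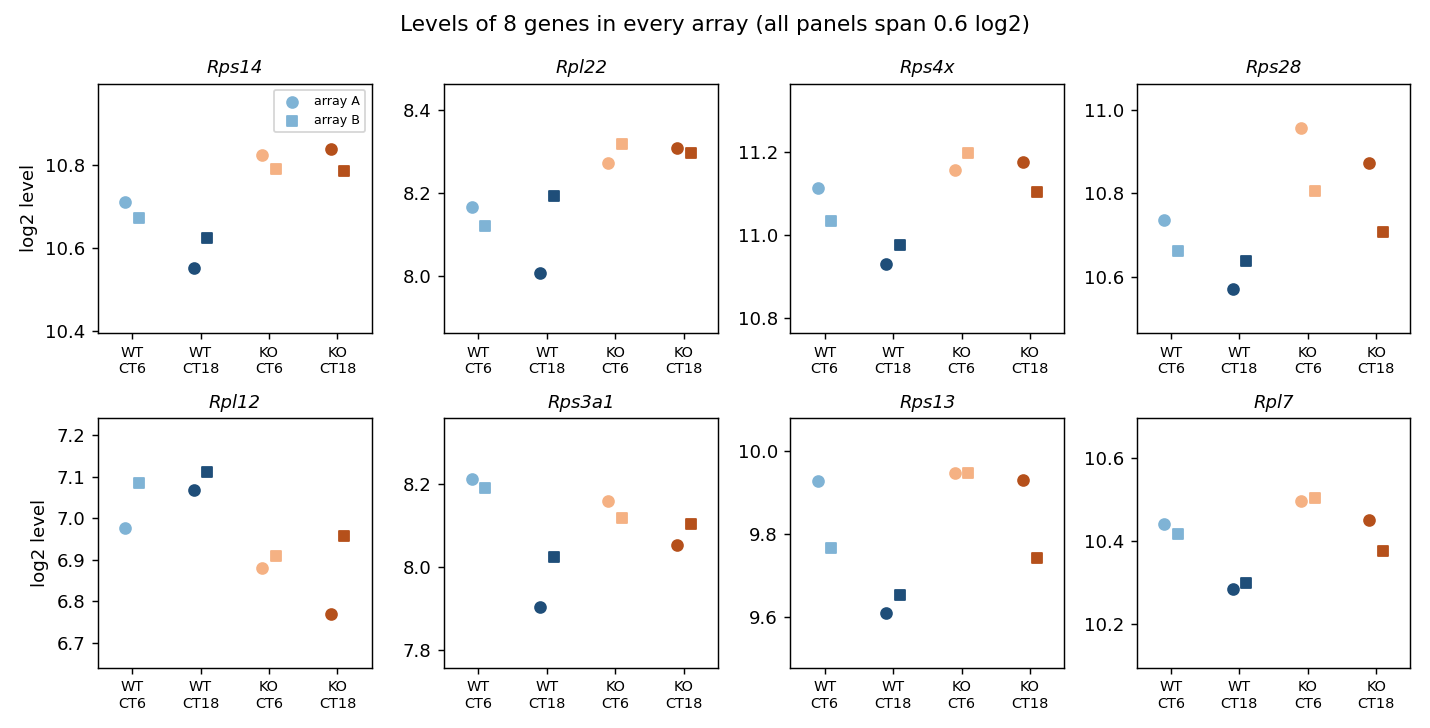
Log2 level (y axis) of 8 genes in every array, by group (x axis), with circles for array A and squares for array B and every panel spanning 0.6 log2. Rps14 and Rpl22 are higher and Rpl12 lower in all 4 knockout arrays, and Rps3a1, Rps13 and Rpl7 are lowest in WT CT18.

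In the knockout the median night-day difference was -0.00860, and 0.0126 without the KO CT18 B array, while 26 of 62 genes were above 0 (53.2% of all genes). None of 59 (0) was called by limma (7.16% of all genes were), and 0 passed at an unadjusted p under 0.05 (22.5% of all genes). The smallest p-values belonged to Rpl32l (0.13), Rpl23 (0.15), Rpl7 (-0.09), Rps27l (0.11) and Rpl30 (-0.08), with adjusted p from 0.236 to 0.416. Without overlap, 10 genes read higher and 10 lower at CT18 (23.9% and 19.8% of all genes).

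Over both genotypes 47 of 62 genes read lower at CT18 (46.7% of all genes), with a median of -0.0365, and Rps3a1 alone was called, where 16.8% of all genes tested were called and 6.79% were called lower. At an unadjusted p under 0.05, 4 members passed, all lower (30.5% of all genes passed in either direction). Rps13 (-0.16, adjusted p = 0.0645) and Rpl7 (-0.11, adjusted p = 0.0702) came next, followed by Rplp2 (-0.09, adjusted p = 0.144) and Rps4l (-0.09, adjusted p = 0.166). Rpl7 read 10.44 and 10.42 in WT CT6, 10.29 and 10.30 in WT CT18, 10.49 and 10.50 in KO CT6, and 10.45 and 10.38 in KO CT18, so that WT CT18 was lowest.

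The difference between the genotypes' night-day changes was itself tested. Its median over the 62 genes was 0.0590, beside -0.0135 for all genes tested, and 49 of 62 were above 0 (47.2% of all genes). Limma called 0 of 59 members (0% of all genes tested), and 1 member passed at an unadjusted p under 0.05 (4.86% of all genes), the paralogue Rpl32l. Rpl32l read 8.36 and 8.28 in WT CT6, 8.20 and 8.19 in WT CT18, 8.18 and 8.31 in KO CT6, and 8.36 and 8.40 in KO CT18, an interaction of 0.26 ± 0.09 (SE, adjusted p = 0.944). Rps3a1 (0.18), Rpl34 (0.15), Rpl24 (0.19) and Rpl36a (0.16) followed, also at 0.944. The wild-type night arrays enter the wild-type night-day difference and the knockout difference at CT18 alike, so those values are not independent of each other.

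Other genes of the translation apparatus were set beside the family. Of the ribosomal proteins outside the naming rule, Fau, which is made as a ubiquitin-like fusion with a 40S protein, was measured and had a knockout minus wild type difference of 0.08 ± 0.04 (SE, adjusted p = 0.422). The 77 genes of the mitochondrial ribosome, which translates the mitochondrial genome, had a median of 0.0530, with 58 of 77 above 0. None of these 77 was called. At an unadjusted p under 0.05, 18 passed, all of them higher, where 12.0% of all genes passed and 5.15% passed higher. In 7 of the 77 every knockout array lay above every wild-type array (1.71% of all genes), and in 0 every one lay below (1.70%). The 12 measured elongation factors and other TOP transcripts, of 14 listed, had a median of 0.0269 with 7 above 0. None was called in the knockout comparison, and 3 of 12 passed at an unadjusted p under 0.05, beside the same 12.0% of all genes.

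The 30 genes of ribosome biogenesis and RNA polymerase I had a median of 0.0110 between genotypes, with 17 above 0, and the 15 measured genes of the mTOR and S6 kinase axis, of 19 listed, had -0.00853 with 6 above 0. None of the 29 and 15 tested was called, and 3 of each list passed at an unadjusted p under 0.05, again beside 12.0% of all genes. By time of day these lists did hold calls. Over both genotypes, 5 biogenesis genes rose at CT18 and 3 fell. Ubtf, the RNA polymerase I factor, rose by 0.40 ± 0.04 (SE, adjusted p = 0.000111) and Nop10 by 0.16. Gnl3, nucleostemin, fell by 0.46 ± 0.05 (adjusted p = 0.000175), and Ncl, nucleolin, fell by 0.22.

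In the mTOR list 3 genes rose at CT18 and none fell: Ddit4, an inhibitor of mTOR complex 1, by 0.32 ± 0.04 (SE, adjusted p = 0.000837 in limma), Mlst8 by 0.16 and Akt1 by 0.14. In the mitochondrial ribosome 6 of 77 genes rose at CT18 and none fell, led by Mrpl41 (0.50), Mrps6 (0.29), Mrpl34 (0.29) and Mrpl14 (0.19). Among elongation and TOP transcripts Eef1d rose by 0.16 and Eif4b fell by 0.16. The calls of Mlst8, Akt1, Eef1d and Eif4b were lost under some alternatives, with adjusted p up to 0.119, 0.128, 0.101 and 0.107. These counts stand beside the 16.8% of all genes called in the same comparison.

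**Figure D5:**
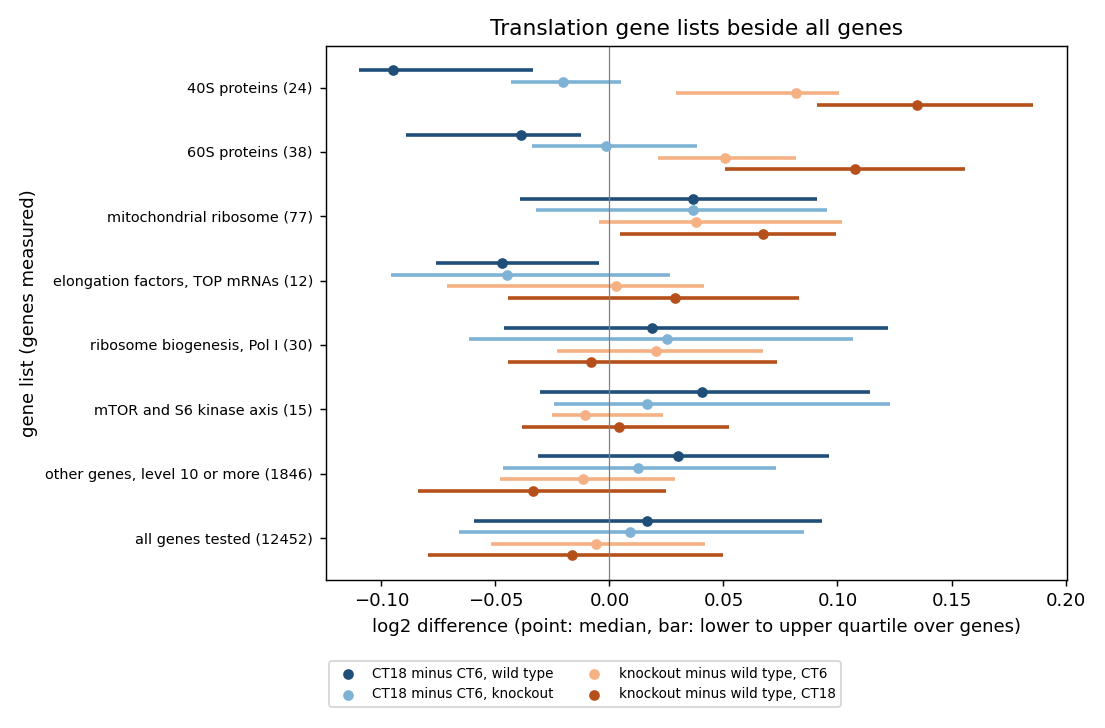
Median (point) and lower to upper quartile (bar) of log2 differences (x axis) for gene lists (y axis, number of genes in brackets), in 4 contrasts that share arrays. The 40S and 60S genes lie above 0 in the knockout at CT18 (medians 0.135 and 0.108), and other genes with a level of 10 or more lie below (-0.0334).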

How the data were processed

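RNA of 8 SCN pools was labelled with biotin by an Affymetrix kit and hybridised to arrays, per the labels' protocols. The deposited values are log2 expression values (scale read from the values, with array medians of 7.34 to 7.39), made by a normalization not given in the sources used here. These 8 columns were quantile normalized again. Of 28853 probe sets, 21789 carried 1 symbol in the platform annotation, 1621 several, and 5443 are unnamed here; the brightest single-symbol probe set stood for a gene. Genes with a mean under the 40th percentile of probe sets (6.82) were not tested. Limma 3.58.1 in R 4.3.3 fitted 4 group means to 8 arrays (4 residual degrees of freedom, prior 5.58), gave 7 contrasts, and was checked on simulated data; p-values were Benjamini-Hochberg adjusted over 12452 genes and called under 0.05. The number of arrays limits precision: the median SE of a member's difference was 0.0589 between 2 groups and 0.0417 over all 4. On the simulated data, a true difference of 0.1 was called in 3.2% of cases for knockout minus wild type over both times. The shares were 1.2% for wild-type night minus day and 0.4% for the interaction. Fewer genes were changed in each simulation than the 864 called for wild-type night minus day in these data. The 1.2% therefore need not hold for that comparison. A member without a call may still differ by 0.1. False calls made up 6.26% to 7.37% of all simulated calls, more than the share of 0.05 that the adjustment aims for.

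The members and lists were chosen with earlier results of these data known, so counts and medians over members are descriptions. Text names members called in a contrast or, with fewer than 5, those with the 5 smallest p-values, plus stalk genes, Rpsa, Rps6, reference genes, paralogues, and the 3 brightest, dimmest, widest and narrowest members. Of other lists, up to 4 called genes were named. Further members with no overlap, or near or below 0, were named after their values were seen, for their position in the family. Alternatives were other normalizations, filters, a probe set mean, an intensity trend, a replicate block, only the groups compared, and leaving out each array; the difference from other bright genes was added after seeing the data. Gene names and promoters came from RefSeq tables (GRCm38.p6). All 62 members matched the gene names by symbol, and 50 had promoter windows. Protein sequences and a genome were not used here.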

Additional observations from a re-analysis of the deposited data

How the results depend on the processing

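The direction of the family's shift in the knockout held under every alternative run, and its size depended on normalization. With each array centred on its median, the median knockout minus wild type difference was 0.0613 over both times (0.0853 in the report), 0.0431 at CT6 and 0.0789 at CT18. Measured from the median of other genes with a level of 10 or more, chosen after seeing the data, it was 0.148 at CT18, the wild-type night-day median was -0.0914 and the interaction median 0.0816. Leaving out 1 array at a time gave 0.0763 to 0.0993 over both times and 0.103 to 0.140 at CT18 (lowest without KO CT18 A, highest without KO CT18 B). It gave -0.0695 to -0.0352 for wild-type night minus day (nearest 0 without WT CT18 A) and 0.0254 to 0.0894 for the interaction (lowest without KO CT18 A, highest without KO CT18 B).

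Members called between night and day numbered 1 in the report. In wild type the count was 0 with the deposited values, median centring, no filter, the replicate block or only the groups compared, and 0 to 1 with an array left out. Over both genotypes it was 0 with the deposited values, median centring or no filter, 3 with the stricter filter (60th percentile) or an intensity trend (Rps3a1, Rps13 and Rpl7), and 0 to 2 with an array left out. Counts of members called in the other 5 contrasts stayed at 0.

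Over all genes tested, wild-type night-day calls numbered 864, and 394 without WT CT6 A, 367 without WT CT6 B, 315 without WT CT18 A and 492 without WT CT18 B. In the knockout they numbered 891, 590 with median centring, and 382 to 511 when a knockout array was left out. Over both they numbered 2096, and 1378 without KO CT18 B. Knockout calls numbered 3 over both times, and 1 to 7 under the alternatives; at CT6 they numbered 1, and up to 2, and at CT18 1, and up to 3.

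Whether letters A and B pair the pools is not known here. Deviations of A arrays correlated from -0.222 to 0.257 over 6 pairs of groups. With 2 arrays a group the deviations of B mirror those of A, so these correlations cannot settle the pairing. With the letter as a replicate block, the wild-type call of Rps3a1 was lost (adjusted p = 0.0578), and 26 members in place of 30 passed an unadjusted p under 0.05 in the knockout comparison. With an array left out, the lone array of its group was assumed to vary like the others. Signal over background cannot be read from these values, and 2 arrays a group limit what the test can call.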
